A study of Homo sapiens with 8 samples.

Results

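The FOXO factors and the quiescence genes linked to them were followed in CUTLL1 cells, an established human line of T-cell acute lymphoblastic leukemia (T-ALL) that carries a translocation joining the T cell receptor beta locus to NOTCH1. The group held 10 genes chosen by name, the factors FOXO1, FOXO3 and FOXO4 and the linked genes PIK3IP1, TXNIP, CCNG2, IRS2, SESN1, ARRDC3 and RBL2, out of 19775 genes with a probe set of their own. They were read by 25 probe sets out of 41097 annotated to exactly 1 gene. A further 3 probe sets listed both FOXO3 and FOXO3B and were only counted. RNA was taken after 48 h in 4 groups with 2 arrays each: vehicle (DMSO), the gamma-secretase inhibitor PF-03084014 at 1 microM, the synthetic glucocorticoid dexamethasone at 1 microM, and the combination of both compounds at those concentrations. All groups came from this single cell line, and the labels do not say whether replicate arrays stem from separate cultures. The p-values therefore measure only the spread between these samples, which may be technical.

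FOXO proteins are forkhead transcription factors that AKT phosphorylates when PI3K signalling is active, which holds them in the cytoplasm. When PI3K signalling is low they enter the nucleus and switch on genes of cell cycle arrest, antioxidant defence and reduced growth, and in lymphocytes they are known for maintaining the resting state. The linked genes fall into roles: PIK3IP1 is a membrane protein that inhibits PI3K, TXNIP and ARRDC3 are arrestin-domain proteins that limit nutrient uptake and receptor signalling, CCNG2 and RBL2 restrain the cell cycle, IRS2 relays insulin signals to PI3K, and SESN1 restrains mTORC1. PF-03084014 blocks the cleavage that activates NOTCH1, and dexamethasone activates the glucocorticoid receptor.

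The 4 genes whose brightest probe set rose in the combination were TXNIP, PIK3IP1, CCNG2 and ARRDC3, which differed in their response to the single compounds. The 250 bases before their outermost annotated start are printed to show what lies ahead of the genes that share that call. The sequences are from RefSeq on GRCh38.p14, are given 5′ to 3′ on the gene's strand, and all 10 genes matched an entry. Capitals mark a motif match on either strand.
TXNIP, chr1:145996580-145996829, minus strand: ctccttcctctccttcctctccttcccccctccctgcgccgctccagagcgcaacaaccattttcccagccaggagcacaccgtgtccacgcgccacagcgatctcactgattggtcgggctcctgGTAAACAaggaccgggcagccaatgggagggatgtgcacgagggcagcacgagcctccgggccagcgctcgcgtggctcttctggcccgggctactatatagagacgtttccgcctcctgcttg
PIK3IP1, chr22:31292535-31292784, minus strand: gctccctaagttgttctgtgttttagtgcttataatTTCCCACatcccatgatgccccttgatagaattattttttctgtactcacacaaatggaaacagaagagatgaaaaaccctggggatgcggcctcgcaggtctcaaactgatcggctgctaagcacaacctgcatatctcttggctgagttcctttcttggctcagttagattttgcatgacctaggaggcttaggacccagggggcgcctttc
CCNG2, chr4:77156957-77157206, plus strand: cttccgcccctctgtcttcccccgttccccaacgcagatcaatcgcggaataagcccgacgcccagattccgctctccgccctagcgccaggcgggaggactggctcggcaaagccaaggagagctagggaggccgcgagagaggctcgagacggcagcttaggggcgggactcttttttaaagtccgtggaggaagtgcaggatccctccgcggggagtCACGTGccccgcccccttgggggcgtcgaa
ARRDC3, chr5:91383318-91383567, minus strand: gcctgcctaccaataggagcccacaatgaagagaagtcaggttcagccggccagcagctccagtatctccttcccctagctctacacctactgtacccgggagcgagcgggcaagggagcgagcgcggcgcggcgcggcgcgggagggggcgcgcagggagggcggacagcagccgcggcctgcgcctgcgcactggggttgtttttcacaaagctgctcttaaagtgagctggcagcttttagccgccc

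The motifs searched on both strands were the FOXO motif GTAAACA, the E-box CACGTG, the RBPJ motif GTGGGAA, the full glucocorticoid response element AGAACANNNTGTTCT and its shorter part AGAACA, which lies within the full element. Over the same window of all 35116 starts in the table, 2.98% held the FOXO motif, 6.34% the E-box, 5.43% the RBPJ motif, 0.00285% (1 start) the full glucocorticoid element and 12.4% the shorter one. TXNIP held GTAAACA 124 to 118 bases before the start. PIK3IP1 held TTCCCAC, the RBPJ motif on the other strand, 214 to 208 bases before the start, and the shorter glucocorticoid motif as TGTTCT 239 to 234 bases before it, left in lower case. CCNG2 held CACGTG 30 to 25 bases before the start. The outermost ARRDC3 window held no match, and a second annotated start of ARRDC3 held TGTTTAC 29 to 23 bases before it. Among the other 6 genes, RBL2 alone had a match, TGTTCT 212 to 207 bases before the start. Each match is a description of letters in this window.

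The libraries looked like T cells on every array. All 13 T-lineage markers (such as CD3D, LCK and PTCRA) had a group mean over 100 intensity units in each group, and their summed intensity was 61617 to 71385. The 5 measured B-lineage markers summed to 547 to 584 in DMSO and 737 to 797 in the combination, where CD79A was called higher by 0.86 on the log2 scale (limma adjusted p = 0.00941). The 5 measured myeloid markers summed to 529 to 582 in DMSO and 319 to 384 in the combination, where ITGAM fell by 1.71 on the log2 scale (adjusted p = 0.00853). The single-compound groups lay between for both lists, apart from 1 overlapping myeloid array of PF-03084014, and the part of these shifts in the results was not tested. The 5 epithelial and stromal markers summed to 286 to 531. At most 2 markers of any of these 3 lists had a group mean over 100. Against the sums, the B-lineage markers over 100 went from 2 in DMSO to 1 in the combination. The myeloid markers over 100 went from 1 to 2, so other markers of these lists moved the other way. The array medians lay between 61.8 and 63.9 apart from 76.3 on combination replicate 2. The log2 values of replicate arrays differed with an SD of 0.357 to 0.372 in the other groups and 0.559 in the combination, so each member's difference between the combination and DMSO is given with and without that array. The 95th percentile of 27 bacterial control probe sets, which stand for no human gene, was 54.3 to 64.6 and 88.3 on combination replicate 2. It serves as the level of background, and the 3 probe sets of FOXO1 lay below it on all 8 arrays. In bulk RNA, fewer cells that express a gene and less RNA per cell cannot be told apart.

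Differences were tested on log2 intensity with limma over all 41097 probe sets. A probe set is said to have risen or fallen where limma's Benjamini-Hochberg adjusted p was under 0.05, and values after ± are standard errors of the log2 difference. Of the 25 member probe sets, 8 rose in the combination against DMSO and 0 fell, where 3.97% of all probe sets rose. They belonged to PIK3IP1, TXNIP, CCNG2 and ARRDC3. A mean intensity of at least 100 was reached by 16 of the 25 and by 19064 of the 41097. Fitted alone, those 19064 gave 4957 calls in the combination, 44.7% of them higher. Of the 16 member probe sets among them, 9 were higher and 1 lower. How far brightness accounts for the member share was not tested. The members were chosen with earlier results of these data known. PF-03084014 alone raised 1, a CCNG2 probe set, where 0.200% of all probe sets rose. An unadjusted p under 0.05 was found for 10 of the 25 and for 11.3% of all probe sets. Dexamethasone alone raised 0, where 0.0365% of all rose, and an unadjusted p under 0.05 was found for 4 of the 25 and for 7.70% of all. The 3 comparisons share the same 2 DMSO arrays. The combination was higher than dexamethasone for 3 member probe sets (background 1.64%) and higher than PF-03084014 for 2 (background 0.569%). Fitting only the groups compared leaves fewer arrays for the spread. It called 0 of the 41097 probe sets in each of these comparisons, so it cannot set the members apart from the rest. Leaving out 1 array also moved the calls over all probe sets. A call lost or gained that way therefore does not set a probe set apart.

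Counted by the brightest probe set of each gene, 4 of 10 genes rose in the combination (background 5.41% higher and 4.63% lower), 1 of 10 in PF-03084014 (0.273% and 0.278%) and 0 of 10 in dexamethasone (0.0556% and 0.0253%). For every gene the brightest was chosen over all 8 arrays, treated ones included. For the members 8 of the 10 had a mean intensity over 100. The median log2 difference over the 25 probe sets was 0.22 with PF-03084014, 0.10 with dexamethasone and 0.48 with both compounds, beside 0.00, 0.00 and 0.02 over all probe sets. In the combination both arrays lay above both DMSO arrays for 17 of the 25 probe sets and below them for 1, beside 24.7% and 22.5% of all probe sets. The same held for 12 and 2 in PF-03084014 (22.8% and 19.8% of all) and for 6 and 3 in dexamethasone (21.4% and 18.1% of all).

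**Figure D1:**
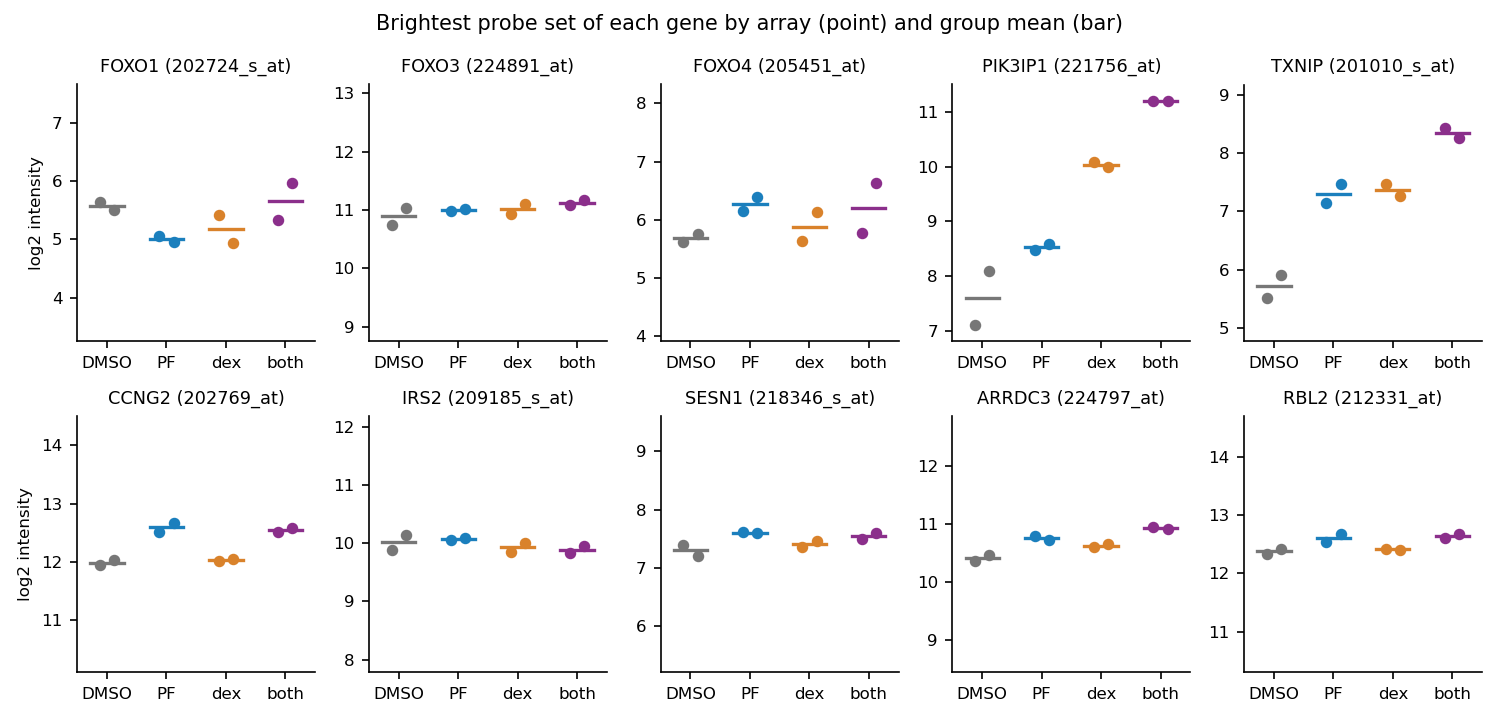
Log2 intensity of the brightest probe set of each of the 10 genes on every array (points) with the group mean (bars), for DMSO, PF-03084014 (PF), dexamethasone (dex) and the combination (both), every panel spanning the same number of log2 units. PIK3IP1 and TXNIP span the widest range, CCNG2 sits higher in both groups that received PF-03084014, and IRS2 and FOXO3 stay within a narrow band.

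The member factors FOXO1, FOXO3 and FOXO4 gave no called difference in any comparison, and FOXO1 lay at background. FOXO6, which is no member, is given with the paralogs below. FOXO3, a forkhead factor of resting cells, had intensities of 1712 and 2101 in DMSO, 2018 and 2085 in PF-03084014, 1961 and 2212 in dexamethasone and 2161 and 2299 in the combination at its brightest probe set 224891_at. Both combination arrays lay above both DMSO arrays, and the single-compound groups overlapped DMSO. The log2 difference from DMSO was 0.11 ± 0.114, 0.14 ± 0.114 and 0.23 ± 0.114 for the 3 treatments, with limma adjusted p of 0.839, 0.896 and 0.286. The FOXO3 probe set 224889_at read 439 to 578 over the 8 arrays and 204131_s_at 308 to 536, with all groups overlapping DMSO, and their combination differences were 0.02 ± 0.158 and -0.26 ± 0.235. With combination replicate 2 left out, the FOXO3 differences were 0.19, -0.07 and -0.19 for these 3 probe sets. The fourth, 231548_at, read 40.4 to 66.9 and lay above the bacterial controls on 4 of 8 arrays. Its combination difference was 0.15 ± 0.196, and 0.12 without combination replicate 2.

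FOXO1, the forkhead factor that drives the homing receptors of resting T cells, could not be told from background on this array. Its brightest probe set 202724_s_at read 49.6 and 45.2 in DMSO, 33.4 and 30.9 in PF-03084014, 42.9 and 30.7 in dexamethasone, and 40.2 and 62.8 in the combination. The other FOXO1 probe sets, 228484_s_at and 202723_s_at, read 21.1 to 60.1 and 11.2 to 50.8. All 24 of these values lay below the bacterial controls of their array, so no fold is given. FOXO4 read 49.1 and 54.4 in DMSO, 71.1 and 83.6 in PF-03084014, 49.6 and 70.5 in dexamethasone, and 54.5 and 99.0 in the combination at 205451_at. It lay above the bacterial controls on 5 of 8 arrays, and its differences of 0.58 ± 0.347, 0.19 ± 0.347 and 0.51 ± 0.347 had limma adjusted p of 0.674, 0.999 and 0.425. The FOXO4 difference in the combination was 0.08 without combination replicate 2, which read 99.0.

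PIK3IP1, the inhibitor of PI3K, had the largest rise of the 25 probe sets in the combination. At 221756_at it read 138 and 271 in DMSO, 354 and 386 in PF-03084014, 1086 and 1018 in dexamethasone, and 2368 and 2360 in the combination. The groups lay in that order with no overlap, and the DMSO arrays were the ones farthest apart. The combination was 12.2-fold above DMSO, a log2 difference of 3.61 ± 0.309 (limma adjusted p = 0.00734). Without combination replicate 2 the difference was 3.61 and the adjusted p 0.0305, and with each array left out in turn the call was kept and the difference ranged from 3.12 to 4.10.

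Dexamethasone alone gave a log2 difference of 2.44 ± 0.309 for 221756_at, 5.43-fold, which missed the threshold with a limma adjusted p of 0.158. Without DMSO replicate 1 it was 1.95 (adjusted p = 0.0292) and without DMSO replicate 2 it was 2.93 (adjusted p = 0.0163), both called. PF-03084014 alone gave 0.93 ± 0.309 (adjusted p = 0.361), which became 0.45 (adjusted p = 0.215) without DMSO replicate 1 and 1.42 (adjusted p = 0.0228) without DMSO replicate 2. With 1 DMSO array left, that array is assumed to vary like the other groups. Over the 19064 probe sets with a mean intensity of at least 100, dexamethasone was called too (adjusted p = 0.0101).

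Set against the single compounds, the combination exceeded PF-03084014 at 221756_at by 2.68 ± 0.309 (limma adjusted p = 0.0353). Without combination replicate 2 the adjusted p was 0.092. The call also ended without PF-03084014 replicate 1 (2.61), PF-03084014 replicate 2 (2.74) and either dexamethasone array (2.68). Without a dexamethasone array the difference was the same and only the estimate of the spread changed. Calls over all probe sets fell there too, so that loss cannot set PIK3IP1 apart. Against dexamethasone the difference was 1.17 ± 0.309 (adjusted p = 0.115). It was called with DMSO replicate 1 left out (adjusted p = 0.0312), with DMSO replicate 2 left out (adjusted p = 0.0317) and among probe sets with a mean intensity of at least 100 (adjusted p = 0.0239).

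The other probe sets of PIK3IP1 moved the same way in the combination and by less. At 221757_at the gene read 215 and 230 in DMSO, 253 and 212 in PF-03084014, 329 and 326 in dexamethasone, and 511 and 676 in the combination. PF-03084014 overlapped DMSO here, and dexamethasone and the combination lay above it in turn. The combination rose by 1.40 ± 0.160 over DMSO, 2.64-fold (limma adjusted p = 0.0132), and by 1.20 without combination replicate 2 (adjusted p = 0.025). The call ended without DMSO replicate 1 (1.35, adjusted p = 0.0748) and without DMSO replicate 2 (1.45, adjusted p = 0.0643).

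Dexamethasone gave 0.56 ± 0.160 (limma adjusted p = 0.473) and PF-03084014 0.06 ± 0.160 (adjusted p = 0.994) at 221757_at. The combination exceeded PF-03084014 there by 1.34 ± 0.160 (adjusted p = 0.0373), and this call held only without combination replicate 1. The adjusted p was 0.0524 without combination replicate 2, with a difference of 1.14, and 0.0925 to 0.146 without any 1 of the other arrays. The third probe set, 1555632_at, read 62.8 and 81.5 in DMSO, 61.2 and 64.7 in PF-03084014, 94.3 and 70.9 in dexamethasone, and 131 and 171 in the combination. Both combination arrays were above all others, and the difference from DMSO of 1.07 ± 0.245 missed the threshold (adjusted p = 0.0675), which it passed without combination replicate 1 (1.26, adjusted p = 0.0458) and missed without combination replicate 2 (0.87, adjusted p = 0.169). Averaged over its 3 probe sets, PIK3IP1 rose by 2.03 ± 0.183 in the combination (adjusted p = 0.00706 over 19775 genes), below the 3.61 of the brightest.

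Whether the PIK3IP1 probe sets changed by different amounts was tested within arrays, as the log2 difference of 221756_at and 221757_at, in a limma fit over the 10523 genes with at least 2 probe sets. That difference was -0.63 and 0.23 in DMSO, 0.49 and 0.87 in PF-03084014, 1.72 and 1.64 in dexamethasone, and 2.21 and 1.80 in the combination. Every treated array lay above both DMSO arrays. Relative to DMSO, 221756_at changed more than 221757_at by 0.88 ± 0.327 log2 units in PF-03084014, 1.88 ± 0.327 in dexamethasone and 2.21 ± 0.327 in the combination. Each pair was ordered by brightness over all 8 arrays. In DMSO 221756_at was the dimmer, with a geometric mean of 194 against 222. Its place as the brightest therefore rests on the treated arrays.

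By size the dexamethasone disagreement ranked 11 and the combination disagreement 32 among the 10523 genes, whose median absolute disagreement was 0.16 and 0.31. The PF-03084014 disagreement ranked 433, against a median of 0.19. None passed the threshold, with limma adjusted p of 0.793, 0.714 and 0.109 and unadjusted p of 0.0374, 0.0013 and 5.69e-04. Over all these genes 0% were called with PF-03084014, 0% with dexamethasone and 0.0380% with both compounds, while 651, 472 and 1970 had an unadjusted p under 0.05. The combination disagreement passed where only probe sets with a mean intensity of at least 100 entered (2.21, adjusted p = 0.0304) and without combination replicate 1 (2.00, adjusted p = 0.0488), and not without combination replicate 2 (2.41, adjusted p = 0.165). Of the 7 member genes with at least 2 probe sets, 0 were called in any of the 3 comparisons.

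**Figure D2:**
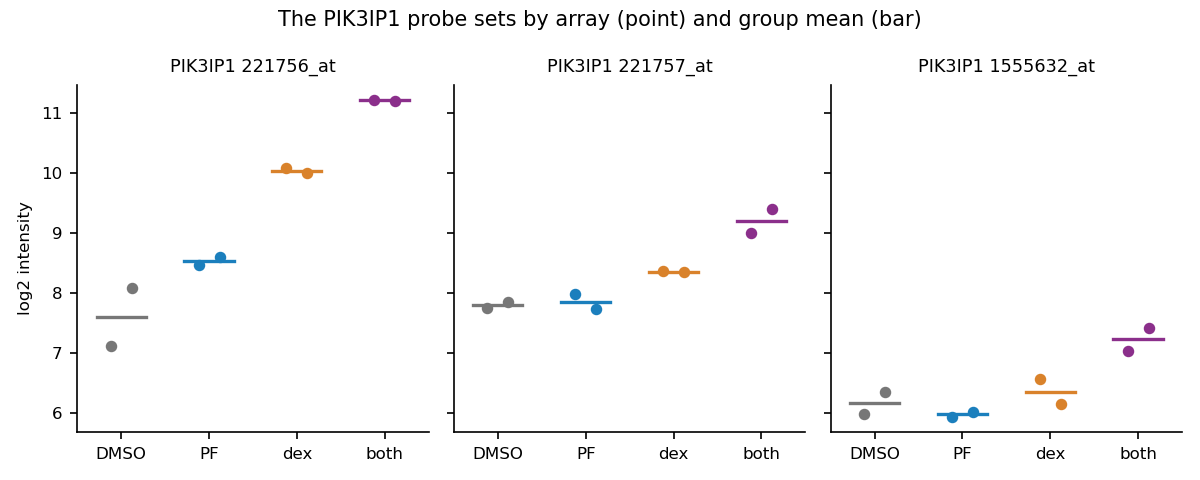
Log2 intensity of the 3 PIK3IP1 probe sets on every array (points) with the group mean (bars), on a shared axis. At 221756_at the groups climb in 4 separate steps. At 221757_at DMSO and PF-03084014 lie together, dexamethasone lies above them and the combination higher still. At 1555632_at the combination alone stands clear above all other arrays.

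TXNIP, the arrestin-domain protein that binds thioredoxin and limits glucose uptake, was higher with each compound and highest with both. At 201010_s_at it read 45.8 and 60.1 in DMSO, 142 and 177 in PF-03084014, 178 and 154 in dexamethasone, and 346 and 307 in the combination. The single compounds overlapped each other and lay between the DMSO and combination arrays. Of the 2 DMSO arrays only replicate 2 was above the bacterial controls, so folds over DMSO are given as lower bounds, with replicate 1 set to the level of its controls. The combination rose by 2.63 ± 0.200 (limma adjusted p = 0.00582), at least 5.68-fold, by 2.72 without combination replicate 2 (adjusted p = 0.0205), and by 2.44 to 2.83 with each array left out in turn.

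PF-03084014 alone gave 1.59 ± 0.200 for TXNIP, at least 2.76-fold, and dexamethasone alone 1.66 ± 0.200, at least 2.88-fold. Neither passed the threshold, with limma adjusted p of 0.0693 and 0.140. Among probe sets with a mean intensity of at least 100 both were called (adjusted p = 0.00875 and 0.0238). The combination lay 0.98 ± 0.200 above dexamethasone (adjusted p = 0.0703) and 1.04 ± 0.200 above PF-03084014 (adjusted p = 0.0937), and both were called with that same filter (adjusted p = 0.02 and 0.0279). That filter takes the mean over all 8 arrays. With 45.8 and 60.1 in DMSO, 201010_s_at passed it only through its treated arrays, so these calls are no separate support.

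The probe set 201009_s_at read 56.7 and 48.0 in DMSO, 89.7 and 69.9 in PF-03084014, 67.7 and 80.1 in dexamethasone, and 104 and 138 in the combination. Every treated array lay above both DMSO arrays, and 1 DMSO array was below the bacterial controls. The combination rose by 1.20 ± 0.235 (limma adjusted p = 0.0461), and this TXNIP call was kept only without combination replicate 1. It was 1.00 without combination replicate 2 (adjusted p = 0.111), 1.32 without DMSO replicate 1 (adjusted p = 0.136) and 1.08 without DMSO replicate 2 (adjusted p = 0.187). Without any 1 of the other 4 arrays the adjusted p was 0.0824 to 0.102. The third, 201008_s_at, read 22.1 to 67.5 and was above the bacterial controls on 1 array, with a combination difference of 0.84 ± 0.433, and 1.24 without combination replicate 2. Averaged over its 3 probe sets, TXNIP rose by 1.56 ± 0.172 in the combination (adjusted p = 0.0108 over 19775 genes). TXNIP's brightest probe set exceeded the next in its change by 0.99 ± 0.367, 1.16 ± 0.367 and 1.43 ± 0.367 (adjusted p = 0.793, 0.95 and 0.152). In DMSO the geometric means of these probe sets were 52.5 and 52.2, so the brightest stands out through the treated arrays.

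ARRDC3, a relative of TXNIP that brings ubiquitin ligases to membrane receptors, changed by smaller steps. Its only probe set 224797_at read 1312 and 1409 in DMSO, 1770 and 1700 in PF-03084014, 1554 and 1606 in dexamethasone, and 1973 and 1924 in the combination. The 4 groups did not overlap. The combination rose by 0.52 ± 0.0491, 1.43-fold (limma adjusted p = 0.00922), by 0.54 without combination replicate 2 (adjusted p = 0.0264) and by 0.47 to 0.57 with each array left out. Shifting all arrays to a common median gave 0.39 and ended the call. PF-03084014 alone gave 0.35 ± 0.0491 (adjusted p = 0.0820) and dexamethasone alone 0.22 ± 0.0491 (adjusted p = 0.359).

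The combination exceeded dexamethasone for ARRDC3 by 0.30 ± 0.0491 (limma adjusted p = 0.0444). Without combination replicate 2 this was 0.32 (adjusted p = 0.0891), and the call was kept only without combination replicate 1. The adjusted p was 0.0663 and 0.0667 without a DMSO array, 0.0935 and 0.0936 without a PF-03084014 array, and 0.21 and 0.169 without dexamethasone replicate 1 and 2. A shift to a common median took this difference to 0.15 (adjusted p = 0.494), and the floor of 64, the pseudocount, the fit without trend and the replicate block ended the call too (adjusted p = 0.0503 to 0.0754), as did fitting only the groups compared (adjusted p = 0.169).

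CCNG2, an unusual cyclin that slows the cell cycle, rose where PF-03084014 was present and did not pass the threshold with dexamethasone alone. At 202769_at it read 3937 and 4176 in DMSO, 5876 and 6504 in PF-03084014, 4137 and 4230 in dexamethasone, and 5863 and 6141 in the combination. The DMSO and dexamethasone arrays overlapped, as did the PF-03084014 and combination arrays, and the first pair lay below the second. PF-03084014 raised it by 0.61 ± 0.0639, 1.52-fold (limma adjusted p = 0.0488). This call, close to the threshold, was lost with any 1 of the 8 arrays left out, where the difference was 0.54 to 0.68. Leaving out a dexamethasone or combination array kept the difference at 0.61 and changed only the estimate of the spread. Calls over all probe sets moved with the array left out, so these losses cannot set CCNG2 apart.

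The combination raised 202769_at by 0.57 ± 0.0639, 1.48-fold (limma adjusted p = 0.0130), and by 0.53 without combination replicate 2 (adjusted p = 0.0438). The CCNG2 call ended without DMSO replicate 1 (0.52, adjusted p = 0.0698) and DMSO replicate 2 (0.61, adjusted p = 0.0538). Dexamethasone alone gave 0.04 ± 0.0639 (adjusted p = 0.980), and the combination exceeded dexamethasone by 0.52 ± 0.0639 (adjusted p = 0.0271). Without combination replicate 2 this was 0.49 (adjusted p = 0.0716), and it stayed called only without combination replicate 1, with adjusted p of 0.0515 to 0.153 without each of the other arrays. The combination differed from PF-03084014 by -0.04 ± 0.0639 (adjusted p = 0.787).

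Of the other CCNG2 probe sets, 3 showed the same split between arrays with and without PF-03084014 and 1555056_at did not. At 202770_s_at the gene read 1864 and 1994 in DMSO, 3032 and 3213 in PF-03084014, 1889 and 1833 in dexamethasone, and 2829 and 3252 in the combination. All 4 arrays with PF-03084014 lay above the other 4. The log2 difference for PF-03084014 was 0.69 ± 0.0799 (limma adjusted p = 0.0585, and 0.0434 without either combination array). The combination rose by 0.65 ± 0.0799 over DMSO (adjusted p = 0.0154) and by 0.71 ± 0.0799 over dexamethasone (adjusted p = 0.0243).

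Without combination replicate 2 these were 0.55 (limma adjusted p = 0.0273) and 0.60 (adjusted p = 0.0384). For 202770_s_at of CCNG2 the call against DMSO ended without DMSO replicate 1 (0.60, adjusted p = 0.081), DMSO replicate 2 (0.70, adjusted p = 0.0626) and dexamethasone replicate 1 or 2 (0.65, adjusted p = 0.0528 and 0.0530). The call against dexamethasone ended without any DMSO, PF-03084014 or dexamethasone array, with adjusted p of 0.0573 to 0.129.

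At 211559_s_at, CCNG2 read 242 and 291 in DMSO, 468 and 462 in PF-03084014, 287 and 276 in dexamethasone, and 497 and 392 in the combination. The arrays with PF-03084014 again lay above all those without it. PF-03084014 gave 0.81 ± 0.144 (limma adjusted p = 0.125) and the combination rose by 0.74 ± 0.144 (adjusted p = 0.0462), or by 0.91 without combination replicate 2 (adjusted p = 0.0394). That call ended without DMSO replicate 1 (0.60, adjusted p = 0.171), DMSO replicate 2 (0.87, adjusted p = 0.0941), either PF-03084014 array (adjusted p = 0.101 each) and either dexamethasone array (adjusted p = 0.109 each).

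The CCNG2 probe set 228081_at read 202 to 325 and gave a combination difference of 0.48 ± 0.116 (limma adjusted p = 0.0741), which passed without combination replicate 1 (0.60, adjusted p = 0.0367) and was 0.37 without combination replicate 2 (adjusted p = 0.167). At 1555056_at CCNG2 read 77.7 and 56.8 in DMSO, 86.7 and 83.4 in PF-03084014, 85.6 and 80.2 in dexamethasone, and 107 and 105 in the combination. Here the dexamethasone arrays also lay above DMSO, by 0.32 ± 0.189 beside 0.36 ± 0.189 for PF-03084014 (adjusted p = 0.840 and 0.610). The combination lay 0.67 ± 0.189 above DMSO (adjusted p = 0.107), or 0.69 without combination replicate 2, and 0.31 ± 0.189 above PF-03084014 (adjusted p = 0.494). The brightest CCNG2 probe set and the next differed in their change by -0.09 ± 0.132, 0.10 ± 0.132 and -0.09 ± 0.132 in the 3 comparisons with DMSO, and the mean over all 5 probe sets was 0.60 ± 0.0398 for PF-03084014 (adjusted p = 0.0176 over 19775 genes) and 0.10 ± 0.0398 for dexamethasone (adjusted p = 0.625).

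**Figure D3:**
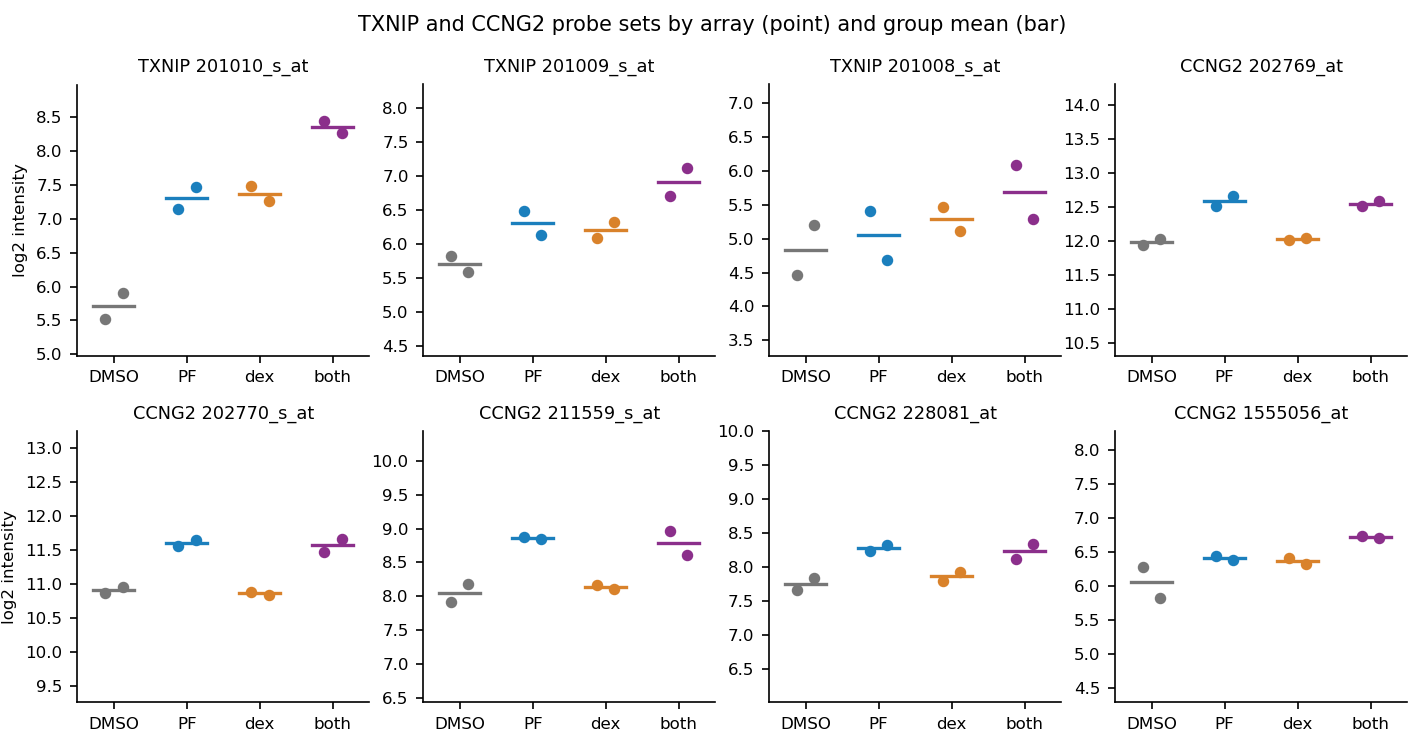
Log2 intensity of the 3 TXNIP and 5 CCNG2 probe sets on every array (points) with the group mean (bars), every panel spanning the same number of log2 units. TXNIP 201010_s_at stands higher with either compound and highest with both, while the 4 brightest CCNG2 probe sets sit at 2 levels, one for DMSO and dexamethasone and a higher one for PF-03084014 and the combination.

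RBL2, the pocket protein of the DREAM complex that represses cell cycle genes in resting cells, gave opposite signs at its probe sets. At 212331_at it read 5135 and 5505 in DMSO, 5952 and 6513 in PF-03084014, 5454 and 5440 in dexamethasone, and 6231 and 6545 in the combination. Arrays with PF-03084014 lay above those without it. The log2 difference was 0.23 ± 0.0624 for PF-03084014 (limma adjusted p = 0.270) and 0.26 ± 0.0624 for the combination (adjusted p = 0.0722), or 0.23 without combination replicate 2. At 212332_at it read 264 and 319 in DMSO, 268 and 199 in PF-03084014, 232 and 199 in dexamethasone, and 201 and 161 in the combination, which lay below DMSO by -0.69 ± 0.208 (adjusted p = 0.124), or -0.53 without combination replicate 2. The probe sets' changes differed by 0.95 ± 0.249 in the combination (adjusted p = 0.155). With a minimum mean intensity of 100 the combination was called higher at 212331_at (adjusted p = 0.024) and lower at 212332_at (adjusted p = 0.0398).

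IRS2, the adaptor that links insulin and IGF receptors to PI3K, passed the threshold in no comparison. It read 945 and 1126 in DMSO, 1066 and 1088 in PF-03084014, 923 and 1026 in dexamethasone, and 907 and 983 in the combination at 209185_s_at. All treated groups overlapped DMSO. The differences were 0.06 ± 0.104, -0.08 ± 0.104 and -0.13 ± 0.104 (limma adjusted p = 0.945, 0.961 and 0.499), and 209184_s_at ranged from 510 to 803. The IRS2 combination difference without combination replicate 2 was -0.19 at the first and 0.20 at the second, which was -0.12 ± 0.236 with it. SESN1, a stress-induced restraint on mTORC1, read 169 and 148 in DMSO, 195 on both PF-03084014 arrays, 165 and 175 in dexamethasone, and 180 and 195 in the combination. Arrays with PF-03084014 lay above those without it, by 0.30 ± 0.106 for PF-03084014 alone (adjusted p = 0.383) and 0.24 ± 0.106 for the combination (adjusted p = 0.237), or 0.19 without combination replicate 2.

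**Figure D4:**
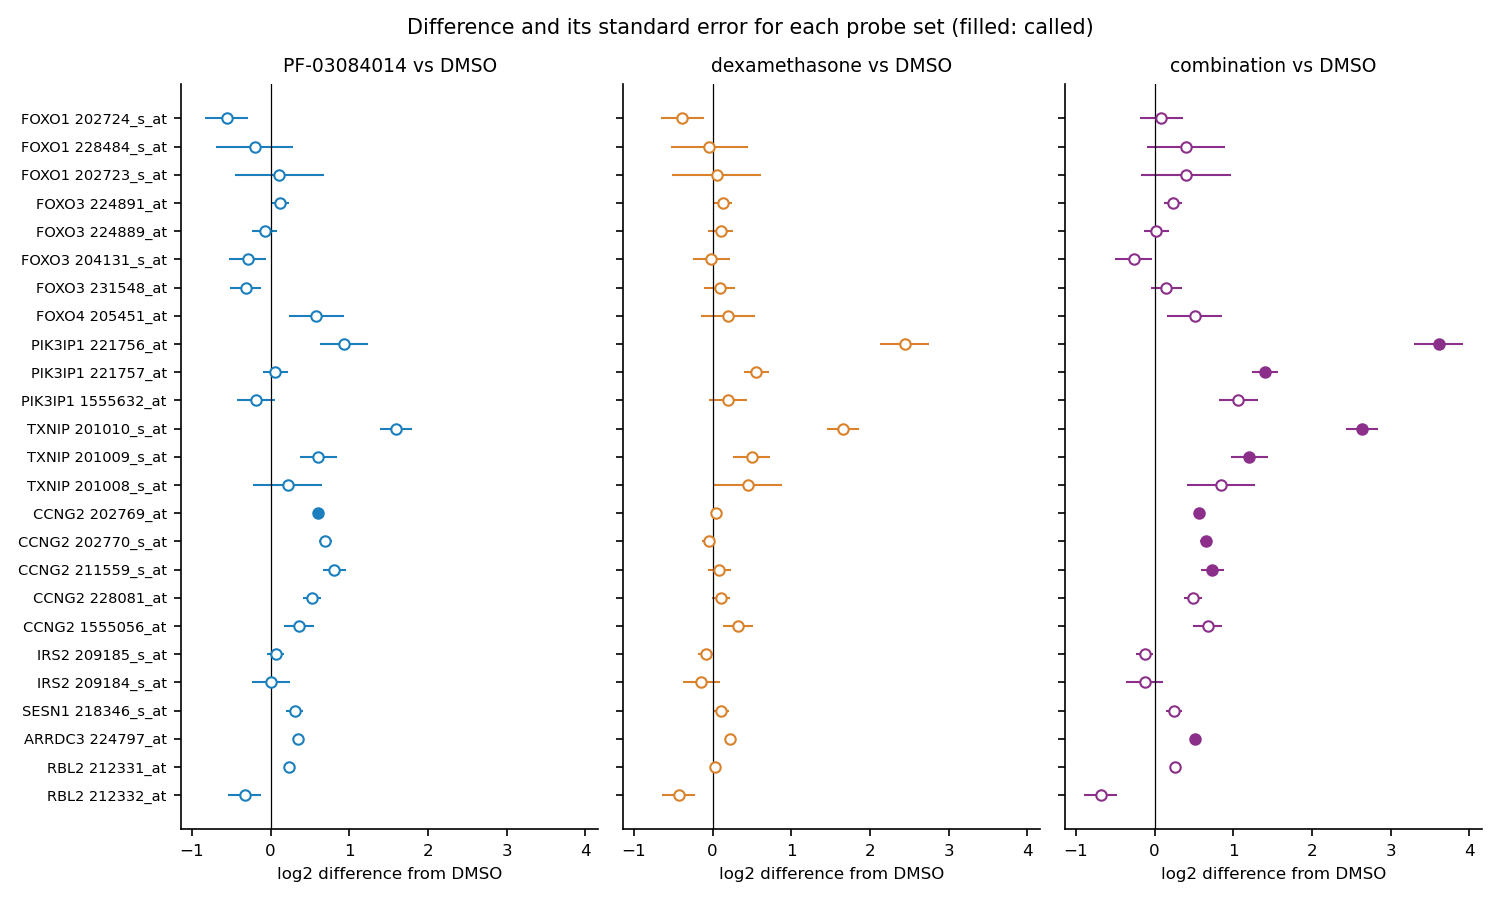
Log2 difference from DMSO of each of the 25 probe sets (points) with its standard error (bars) in a panel per treatment, all sharing the 2 DMSO arrays, with filled points for adjusted p under 0.05. In the combination 8 points are filled, all to the right of 0, against 1 for PF-03084014 and 0 for dexamethasone, and the probe sets of PIK3IP1 and of TXNIP differ among themselves while those of CCNG2 lie close together for PF-03084014.

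The combination was also set against the sum of both single-compound effects on the log2 scale. No member probe set was called in that interaction, where 0.00243% of all probe sets were called, and an unadjusted p under 0.05 was found for 3 of 25 and for 8.31% of all. Those were 221757_at and 1555632_at of PIK3IP1, at 0.79 ± 0.226 and 1.06 ± 0.346 (limma adjusted p = 0.483 and 0.522, with values of 0.58 and 0.86 without combination replicate 2), and 202724_s_at of FOXO1 at background. For 221756_at of PIK3IP1 the interaction was 0.24 ± 0.437 (adjusted p = 0.886), and its sign turned with the DMSO array left out, from 0.72 without replicate 1 to -0.25 without replicate 2. The interaction was -0.61 ± 0.283 for 201010_s_at of TXNIP (adjusted p = 0.643), -0.09 ± 0.0903 for 202769_at of CCNG2 (adjusted p = 0.776) and -0.05 ± 0.0695 for ARRDC3 (adjusted p = 0.842).

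Other genes around this pathway were counted over lists of 109 genes, of which 102 had a probe set of their own and 7 were not analysed here. By the brightest probe set 15 (14.7%) rose and 11 (10.8%) fell in the combination, beside 5.41% and 4.63% of all genes. An unadjusted p under 0.05 was found for 44 (28.2% of all genes). Most listed genes were bright, such as 22 of 24 in PI3K and AKT signalling with a mean intensity over 100, while all genes include dim ones. Fitted alone, the 19064 probe sets with a mean intensity of at least 100 gave 4957 calls in the combination, 44.7% of them higher. How far brightness accounts for the list shares was not tested. The median log2 difference of the listed genes was 0.01, beside 0.06 over all genes. For PF-03084014 0 rose and 0 fell by limma's adjusted p, with 31 at an unadjusted p under 0.05 (13.4% of all genes). For dexamethasone 1 rose and 0 fell, with 22 at an unadjusted p under 0.05 (9.01% of all genes), and the medians were -0.01 and 0.01 beside 0.02 and 0.01. The genes named below are the largest called rise and fall of each list, and each kept its direction with every array left out. Fitting only the groups compared ended the call of each of them (limma adjusted p = 0.115 to 0.237), as it did for every probe set on the array.

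In PI3K and AKT signalling 6 of 24 rose and 1 fell in the combination. PIK3R1, the regulatory subunit that holds and steadies the PI3K catalytic subunit, read 1485 and 1547 in DMSO, 1970 and 2014 in PF-03084014, 1836 and 2108 in dexamethasone, and 3557 and 4733 in the combination, a rise of 1.44 ± 0.146 (limma adjusted p = 0.0104). PHLPP1, a phosphatase that switches AKT off, read 837 and 841 in DMSO and 593 and 667 in the combination and fell by 0.42 ± 0.0697 (adjusted p = 0.0322). The PIK3R1 call ended without DMSO replicate 1 (adjusted p = 0.0622) or replicate 2 (0.0575), and that of PHLPP1 without any 1 DMSO, PF-03084014 or dexamethasone array (adjusted p = 0.0624 to 0.136).

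Among other FOXO-linked targets 6 of 30 rose and 3 fell in the combination. BCL2L11, the BH3-only protein BIM that triggers apoptosis, read 667 and 692 in DMSO, 759 and 858 in PF-03084014, 1395 and 1397 in dexamethasone, and 3115 and 3265 in the combination. It rose by 1.04 ± 0.0672 in dexamethasone (limma adjusted p = 0.0456, and 0.0595 to 0.103 with any 1 array left out) and by 2.23 ± 0.0672 in the combination (adjusted p = 0.00214, kept with each array left out). CDKN1A, the CDK inhibitor p21 and a textbook FOXO target, read 410 and 282 in DMSO, 161 and 145 in PF-03084014, 116 and 142 in dexamethasone, and 79.3 and 117 in the combination. It fell by 1.82 ± 0.275 in the combination (adjusted p = 0.0252), a call lost without any 1 DMSO, PF-03084014 or dexamethasone array (adjusted p = 0.0626 to 0.104).

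The DREAM partners of RBL2 gave 1 rise and 3 falls among 12 in the combination. DYRK1A, the kinase that helps assemble the complex, rose by 0.20 ± 0.0360 (limma adjusted p = 0.0365). That call was lost without any 1 DMSO, PF-03084014 or dexamethasone array (adjusted p = 0.0849 to 0.151), with a pseudocount, without trend and with the replicate block (adjusted p = 0.0630 to 0.0801). A shift to a common median took it to 0.07 (adjusted p = 0.776). E2F5, a repressive E2F, read 728 and 751 in DMSO and 412 and 449 in the combination, and fell by 0.78 ± 0.0592 (adjusted p = 0.00582). Of the thioredoxin and MondoA genes 1 of 8 rose, MLXIP, which encodes MondoA, the glucose-sensing activator of TXNIP, by 0.84 ± 0.0959 (adjusted p = 0.0133, and 0.0742 and 0.0622 without DMSO replicate 1 and 2).

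Of the FOXO regulators 1 of 12 rose and 2 fell in the combination. CREBBP, an acetyltransferase that modifies FOXO proteins, rose by 0.80 ± 0.0926 (limma adjusted p = 0.0137, and 0.0502 to 0.0759 without DMSO replicate 1 or 2 or combination replicate 2). STK3, the kinase MST2, fell by 1.11 ± 0.135 (adjusted p = 0.0150, and 0.0528 to 0.0796 without any 1 DMSO or dexamethasone array). Of the sestrin and GATOR genes 0 of 12 passed, and of the members' paralogs 1 of 11 rose and 2 fell. IRS1, the paralog of IRS2, rose by 0.49 ± 0.0426 (adjusted p = 0.00764), or 0.35 after a shift to a common median, which ended the call (adjusted p = 0.132). FOXO6, the remaining FOXO factor, read 753 and 637 in DMSO and 281 and 262 in the combination at the probe set 239657_x_at, a fall of 1.35 ± 0.105 (adjusted p = 0.00613). The lists overlap, and the suffix of the FOXO6 probe set marks a design whose probes can match other transcripts.

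The genes whose brightest probe sets ran closest to a member over the 8 arrays were listed as a description, among 530 candidate genes for PIK3IP1 with a mean intensity of at least 100 and group means spanning at least 1 log2 unit. The points share arrays and treatments. For PIK3IP1 they were ITGA6, an integrin subunit (Pearson r = 0.9952), HKDC1, a hexokinase-like protein (0.9933), and FKBP5, a chaperone of the glucocorticoid receptor (0.9909). FKBP5 read 5932 and 6398 in DMSO, 7486 and 7720 in PF-03084014, 9736 and 9957 in dexamethasone, and 12873 and 12018 in the combination, the same order of groups as PIK3IP1. For TXNIP the nearest were CCDC57 (0.9914), TRAF3IP2 (0.9825), an adaptor of IL-17 signalling, and SCN3A (0.9823), a sodium channel subunit. SCN3A read 60.9 and 66.0 in DMSO, 187 and 219 in PF-03084014, 195 and 180 in dexamethasone, and 416 and 536 in the combination. Of the candidates 20 exceeded a correlation of 0.95 with PIK3IP1 and 19 with TXNIP. FOXO1 lay below the bacterial controls on all 8 arrays, so genes that follow its values are not named.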

How the data were processed

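The deposited values of the 8 Affymetrix arrays were linear intensities per probe set, made by the authors with biotinylated cRNA prepared with a 3 prime kit, per the labels' protocols. How the authors corrected background and normalized is not given in the sources used here. Of 54675 probe sets, 41097 listed 1 gene in the platform annotation, 1801 several and 11777 none. Only the first were used. Intensities were floored at 16 and converted to log2. limma 3.58.1 in R 4.3.3 fitted a mean per group over all 8 arrays, with an intensity trend and 4 residual degrees of freedom, to which a median of 1.15 prior degrees of freedom were added. Tests were two-sided, with Benjamini-Hochberg adjustment over all probe sets of a comparison. The fit was tested on simulated data. The simulation gave every group the same spread, so it did not cover the wider spread of the combination arrays. The 2 arrays per group limit the precision.

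The members and lists were chosen with earlier results of these data known. All member probe sets are reported, and from each list the largest called rise and fall per treatment. The likeness search took 3 genes each for PIK3IP1, FOXO1 and TXNIP, and those of FOXO1, which lay at background, are not given. Alternatives were quantile normalization, a common median, a floor of 64, a pseudocount of 16, a minimum mean intensity of 100, no trend, only the groups compared, a replicate block, 1 probe set or the mean of all per gene, and each array left out. The minimum mean intensity was taken over all 8 arrays, treated ones included.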

Additional observations from a re-analysis of the deposited data

How the results depend on the processing

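Every one of the 14 called pairs of a member probe set and a comparison kept its direction under all settings run. None kept its call under all of them. Fitting only the groups compared, with 2 residual degrees of freedom, called 0 of the 41097 probe sets in these comparisons, members or not. Of the values for single member probe sets under other settings (2346 in all), none of a called probe set reversed and 153 uncalled values changed sign. The calls over all probe sets, in either direction, are given in brackets beside the member counts and moved too. For PF-03084014 against DMSO the 1 called member probe set (162 of 41097 over all) became 0 under quantile normalization (146), a common median (43) and a floor of 64 (124). It was also 0 with no intensity trend (45), only the groups compared (0) and the replicate block (5). The count became 3 with a pseudocount of 16 (332) and 4 of 16 with a minimum mean intensity of 100 (372 of 19064). For dexamethasone the 0 (20 over all) became 2 with the pseudocount (51) and 2 with that minimum (50 of 19064). For the combination against DMSO the 8 (3268 over all) became 4 under a common median (1132), which ended the calls of TXNIP 201009_s_at, CCNG2 202769_at and 211559_s_at and ARRDC3. The count became 0 with only the groups compared (0). With the minimum 9 of 16 were higher and 1 lower (4957 of 19064). For the combination against dexamethasone the 3 (1580 over all) became 1 under a common median (275) and 6 with the pseudocount (2527). They became 8 with the minimum (3355 of 19064) and 0 with only the groups compared (0). Against PF-03084014 the 2 (574 over all) became 0 under a common median (57), a floor of 64 (470) and no trend (215). They also became 0 with only the groups compared (0) and the replicate block (124), and 4 with the pseudocount (797).

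With 1 array left out in turn, the counts ranged from 0 to 1 for PF-03084014, 0 to 1 for dexamethasone, 3 to 10 for the combination against DMSO, 0 to 4 against dexamethasone, 0 to 3 against PF-03084014 and 0 to 0 for the interaction. The lowest combination counts, 3, came without either DMSO array. The highest counts for the combination came without combination replicate 1, where calls over all probe sets were also the most frequent. Calls over all probe sets moved with the array left out, so these ranges cannot set the members apart from the rest. The PIK3IP1 disagreement of 221756_at and 221757_at ranged from 0.44 to 1.31 for PF-03084014, 1.45 to 2.32 for dexamethasone and 1.77 to 2.64 for the combination. It passed for the combination with a minimum mean intensity of 100 (2.21) and without combination replicate 1 (2.00). The replicate numbers share only a number: over the 6 pairs of groups, same-numbered arrays had deviations that correlated between -0.004 and 0.096. With the replicate block the combination called 7 member probe sets against DMSO (2745 over all) and 2 against dexamethasone (925 over all). The disagreement was then 0.88, 1.88 and 2.21 with limma adjusted p of 0.731, 0.784 and 0.138. Over all probe sets, the share of calls that were higher moved from 49.9% to 35.2% for the combination against DMSO under a common median, from 50.6% to 32.6% for PF-03084014 and from 42.7% to 24% against dexamethasone, and the median interaction moved to -0.13. The cause of these shifts was not tested. Among the named list genes, a common median also ended the calls of CREBBP (0.67) and STK3 (-1.24) in the combination and BCL2L11 (1.06) in dexamethasone, quantile normalization those of PHLPP1 (-0.37) and of BCL2L11 in dexamethasone (1.04), no trend and the replicate block that of BCL2L11 in dexamethasone, and the replicate block that of CDKN1A. The 3 FOXO1 probe sets lay below the bacterial controls on all 8 arrays and FOXO4 on 3 of 8, which limits what can be followed there.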

Other observations

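PIK3IP1-DT, the RNA transcribed away from the PIK3IP1 start, was read by 242666_at and is no member. Its intensity was 26.8 and 33.5 in DMSO, 27.2 and 30.7 in PF-03084014, 75.8 and 55.2 in dexamethasone, and 54.1 and 60.7 in the combination. The dexamethasone and combination arrays lay above all others. Only dexamethasone replicate 1 exceeded the bacterial controls of its array (75.8 against 63.7). Every other array lay below its controls, so this pattern could not be told from background. ARRDC3-AS1, an antisense RNA of ARRDC3, read 131 and 166 in DMSO, 140 and 160 in PF-03084014, 145 and 143 in dexamethasone, and 165 and 231 in the combination at 239395_at.

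The 3 probe sets that list both FOXO3 and FOXO3B cannot be given to either gene. The brightest of them, 204132_s_at, read 156 and 189 in DMSO, 170 and 120 in PF-03084014, 179 and 175 in dexamethasone, and 143 and 118 in the combination, a log2 difference of -0.41 from DMSO in the combination. Both combination arrays lay below both DMSO arrays.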
